A study of Mus musculus with 19 samples.

Results

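Histone-modifying enzyme genes were taken as the mouse protein-coding genes whose symbol begins with Kdm, Kmt, Hdac, Setd, Prdm, Sirt or Kat followed by a digit. The rule found 74 of 21887 nuclear protein-coding genes in the RefSeq table for GRCm38.p6, whose primary coordinates are those of mm10. CpG methylation was measured by reduced-representation bisulfite sequencing, in which DNA is cut with MspI and TaqαI and bisulfite conversion separates methylated from unmethylated cytosines. The livers came from 19 mice aged 10 months, in 3 groups: 8 Mat1a wild-type (WT) mice with no treatment, 6 mice with Mat1a knocked out (KO) on placebo, and 5 KO mice supplemented with S-adenosylmethionine (SAMe). The series title gives 8 weeks of treatment, and strain, sex and the structure of the KO allele are not given in the sources used here. No WT mice received placebo or SAMe, so in each WT comparison genotype and treatment cannot be told apart. The authors' 3 deposited tables hold, for each listed cytosine, a difference between 2 groups in percentage points, with their p-value and q-value. Every listed difference was over 20 in absolute size, and the largest q-value was 0.0495. The tables give no level, read depth or value per animal, so no SD can be printed, depth is unknown and the labels could not be checked against the deleted gene. A gene with no listed site either missed these thresholds or was not covered.

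Methyl, acetyl and other groups on histone tails are written and removed by enzymes that draw on central metabolites. Lysine methyltransferases of the Kmt and Setd families use SAMe, the product of the liver enzyme encoded by Mat1a, as methyl donor. Kdm demethylases use 2-oxoglutarate or flavin, lysine acetyltransferases (Kat) use acetyl-CoA, and sirtuins use NAD, whereas Hdac deacetylases use zinc. The Prdm family shares the PR domain, a relative of the SET methyltransferase domain, and many of its members act mainly as DNA-binding regulators. The label therefore covers some proteins whose main substrates are not histones, such as the mitochondrial sirtuins Sirt3, Sirt4 and Sirt5 and the actin methyltransferase Setd3.

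Of the 74 genes, 16 held a listed site, inside or up to 2 kb beyond an end, when WT was compared with KO placebo (21.6%), against 12.5% of all coding genes. In WT vs KO SAMe the count was 17 (23.0%), against 10.8% of all coding genes. KO placebo vs KO SAMe listed 2 of them, against 0.658% of all coding genes. The tables do not say which group was subtracted. KO minus WT, and SAMe minus placebo, was assumed here, and the opposite order would reverse all directions at once. In that order all 43 sites of these genes in the authors' deposited table were lower in placebo-treated KO liver than in WT liver, and 0 of the 74 genes had a higher one, against 0.0777% of all coding genes. In SAMe-treated KO liver 36 of 37 sites were lower than in WT, and 1 was higher. Over all listed sites 99.4% were lower with placebo and 99.0% with SAMe. Whole liver DNA was used, so lower methylation within cells and a changed mixture of cells cannot be told apart. At least 2 sites were listed in 10 of the 74 genes with placebo, against 5.51% of all coding genes, and in 9 with SAMe, against 4.48%. Both comparisons share the WT mice.

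The medians of these differences were close to those of all listed sites. The median over the 43 sites was −25.7 percentage points, beside −25.9 over all 6721 sites of the authors' deposited table. In WT vs KO SAMe it was −25.3 over 37 sites, beside −26.6 over all 5383 sites in the authors' deposited table. Many sites lay just past the threshold, with 19 of 43 (44.2%) and 16 of 37 (43.2%) under 25 in absolute size. Over all listed sites these shares were 44.5% with placebo and 39.7% with SAMe. Differences of at least 40 made up 4 of the 43 sites (9.30%), against 9.27% of all listed sites. With SAMe it was 1 of 37 (2.70%), against 10.8%.

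Gene length and CpG content differed between these genes and coding genes as a whole. Their median length was 42.8 kb against 17.2 kb. Among genes of at least 20 kb, 12 of 58 were listed with placebo (20.7%), against 17.9% of all coding genes of that length. With SAMe it was 13 of 58 (22.4%) against 15.1%. Per Mb of gene and flank these genes held 7.59 sites in WT vs KO placebo, against 4.55 for all coding genes, and 5.43 without Prdm16. The corresponding densities in WT vs KO SAMe were 6.53, 3.75 and 5.06. The part of length and CpG coverage in the counts was not tested.

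**Figure D1:**
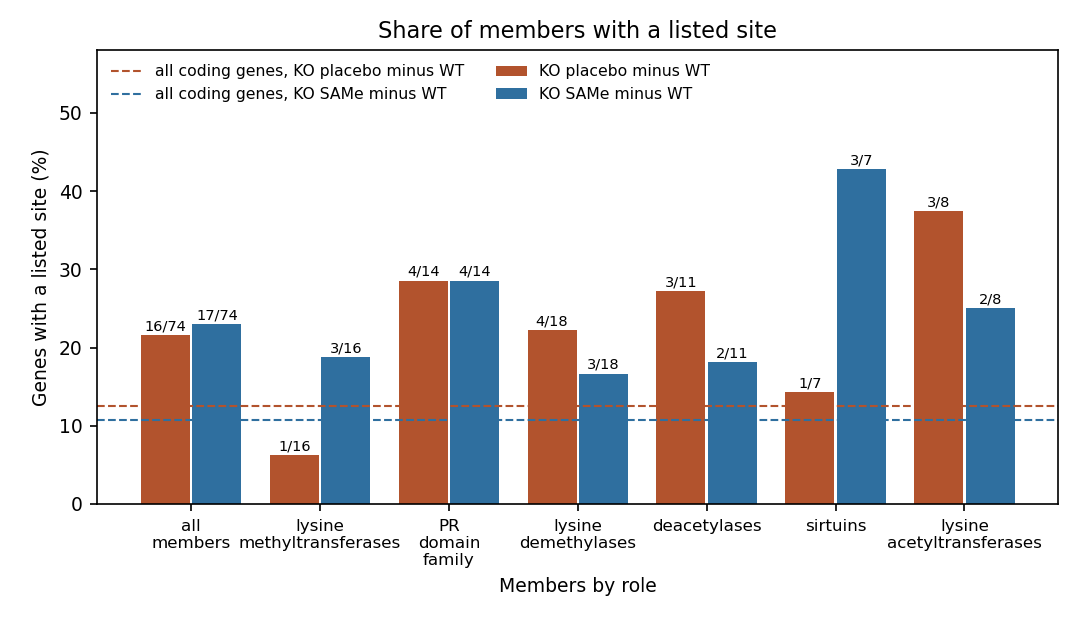
Share of genes with a listed site, in percent (vertical axis), for all 74 genes and for each role (horizontal axis). Bars give the 2 WT comparisons, labels give genes with a site over genes in the group, and dashed lines mark 12.5% and 10.8%, the shares of all coding genes; the groups hold between 7 and 18 genes.

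Promoter windows from the RefSeq-based table (GRCm38.p6), 250 bases before to 50 after an annotated start, were found for 58 of the 74 genes, with 82 windows. The table does not hold every start, and some of its starts lie inside the gene's RefSeq ends. None of the listed sites of these genes lay in a window of this table, and of all listed sites 0.744% did so with placebo and 0.687% with SAMe. With shares this small, 0 of 43 and 0 of 37 sites does not set these genes apart. Hdac1, Hdac3, Kdm4b, Kdm6b, Prdm2 and Setd1b have listed sites but no window of their own. The listed Kat6b site lay 223 bp upstream of the outer RefSeq end of the gene, which the table does not hold as a start. A window beginning 250 bases before that end would have held the site. The windows were richer in CpG than those of all coding genes, with a median of 21 against 13. The MspI recognition sequence CCGG, the same on both strands, was present in 69 of 82 windows (84.1%), against 62.2% of all 21263 windows. The TaqαI sequence TCGA was present in 25 of 82 (30.5%), against 23.9%. A window with these sequences can yield fragments, but which CpG sites were covered is not in the tables. Among genes with a window, those of the 4 whose listed sites lay nearest to a start of this table are shown 5′ to 3′ on the gene's own strand, with CCGG and TCGA in capitals.
Prdm16: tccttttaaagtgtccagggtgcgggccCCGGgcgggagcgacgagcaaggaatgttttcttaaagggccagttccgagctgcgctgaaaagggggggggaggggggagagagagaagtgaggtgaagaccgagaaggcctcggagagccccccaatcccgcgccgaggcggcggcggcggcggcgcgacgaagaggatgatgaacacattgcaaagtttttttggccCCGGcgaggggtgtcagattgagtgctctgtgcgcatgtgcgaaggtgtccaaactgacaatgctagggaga
Prdm1: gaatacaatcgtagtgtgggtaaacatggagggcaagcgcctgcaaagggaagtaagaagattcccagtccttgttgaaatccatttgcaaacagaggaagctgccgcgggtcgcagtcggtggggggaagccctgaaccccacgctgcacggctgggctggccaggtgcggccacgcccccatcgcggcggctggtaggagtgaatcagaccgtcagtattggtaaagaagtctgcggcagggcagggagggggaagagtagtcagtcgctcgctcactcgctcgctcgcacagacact
Kat6b: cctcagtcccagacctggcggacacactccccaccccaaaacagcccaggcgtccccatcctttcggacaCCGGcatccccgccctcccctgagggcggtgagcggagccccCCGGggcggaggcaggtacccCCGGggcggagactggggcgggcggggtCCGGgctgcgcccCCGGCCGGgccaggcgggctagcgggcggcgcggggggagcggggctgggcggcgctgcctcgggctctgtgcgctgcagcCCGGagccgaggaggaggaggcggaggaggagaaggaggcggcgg
Kat2a: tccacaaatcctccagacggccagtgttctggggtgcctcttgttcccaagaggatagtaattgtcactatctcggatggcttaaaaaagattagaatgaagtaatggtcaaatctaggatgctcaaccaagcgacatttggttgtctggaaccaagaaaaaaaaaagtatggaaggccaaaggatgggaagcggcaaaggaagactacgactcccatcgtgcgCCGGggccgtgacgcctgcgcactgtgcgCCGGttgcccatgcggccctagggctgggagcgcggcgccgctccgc
The Prdm16 window lies at chr4:154636824-154637123 on the minus strand and holds 24 CpG and 2 CCGG. That of Prdm1 lies at chr10:44458699-44458998 on the minus strand and holds 20 CpG and 0 CCGG. For Kat6b, at chr14:21499520-21499819 on the plus strand, the counts were 32 and 7, and for Kat2a, at chr11:100712418-100712717 on the minus strand, 19 and 2. None of the 4 windows holds TCGA. The annotation used here gives gene ends and these starts only, so sites were not placed in exons, introns or UTRs.

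Among the 16 lysine methyltransferase genes, 1 was listed with placebo (6.25%) and 3 others with SAMe (18.8%), each against WT. The shares of all coding genes were 12.5% and 10.8%. Kmt2c, which methylates histone H3 at enhancers, stood at −20.3 percentage points in placebo-treated KO liver (chromosome 5, position 25299341, q = 1.61e-14) in the authors' deposited table. Its paralogue Kmt2d stood at −24.8 in SAMe-treated KO liver (chromosome 15, position 98853810, q = 4.28e-07) in the authors' deposited table. Setd1b, a catalytic subunit of a COMPASS complex, had 3 sites in a 41 bp stretch of chromosome 5 (123156994 to 123157034). These stood at −26.6, −24.3 and −21.2 in SAMe-treated KO liver in the authors' deposited table. Setd4 held the only higher site against WT, 21.3 in SAMe-treated KO liver (chromosome 16, position 93589707, q = 1.64e-08) in the authors' deposited table. A higher site in WT vs KO SAMe was listed in 0.0914% of all coding genes. Each of these 4 genes was listed in 1 WT table only, and none of their sites was listed between the KO groups. Listing of a site in 1 WT comparison only was common. Of all listed sites, 55.2% of those in WT vs KO placebo and 68.9% of those in WT vs KO SAMe were in both. Counted by gene, 12 of the 21 genes with a site were in both. That share over all coding genes is not given here. The other 12 genes, Kmt2a, Kmt2b, Kmt2e, Kmt5a, Kmt5b, Kmt5c, Setd1a, Setd2, Setd3, Setd5, Setd6 and Setd7, had no listed site.

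The PR domain family held the largest differences. Both WT comparisons listed sites in the same 4 of its 14 genes (28.6%), Prdm1, Prdm2, Prdm11 and Prdm16. Of all coding genes 12.5% were listed with placebo and 10.8% with SAMe. Prdm16, a transcriptional regulator known for directing brown fat fate, spans 321 kb of chromosome 4 (154316122 to 154637360). It held 14 of the 43 sites listed with placebo and 10 of the 37 listed with SAMe. Its run of sites lies about 2 kb downstream of its start in the promoter table, where 7 cytosines of the plus strand fall within 49 bp (154634815 to 154634863).

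In placebo-treated KO liver these 7 sites stood at −35.3, −37.2, −38.2, −45.7, −41.8, −38.0 and −34.8 percentage points, in order of position, in the authors' deposited table. In SAMe-treated KO liver they stood at −43.8, −29.0, −32.6, −25.3, −37.8, −39.6 and −25.1 in the authors' deposited table. The means over the 7 sites were −38.7 and −33.3, and the ranges overlapped. At 5 of the 7 sites SAMe-treated KO liver was closer to WT. Neighbouring cytosines on 1 fragment can share reads, so the 7 values are not independent. On the minus strand, position 154634983 stood at −23.4 with placebo and −26.9 with SAMe, and position 154634993 at −23.2 with SAMe alone, in the authors' deposited table.

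The fourth of these sites, position 154634832, was also listed between the KO groups. It was higher with SAMe by 20.4 (q = 0.0271) in the authors' deposited table, 2041 bp downstream of the start, a direction listed for 0.384% of all coding genes. The 3 deposited differences of this site add up, −45.7 and 20.4 giving −25.3. At the other 6 sites the SAMe minus placebo difference obtained by this subtraction ran from −8.54 to 9.69, and none of them was listed between the KO groups. Only 9 bp and 16 bp away, positions 154634823 and 154634848 had 5.59 and 4.04.

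**Figure D2:**
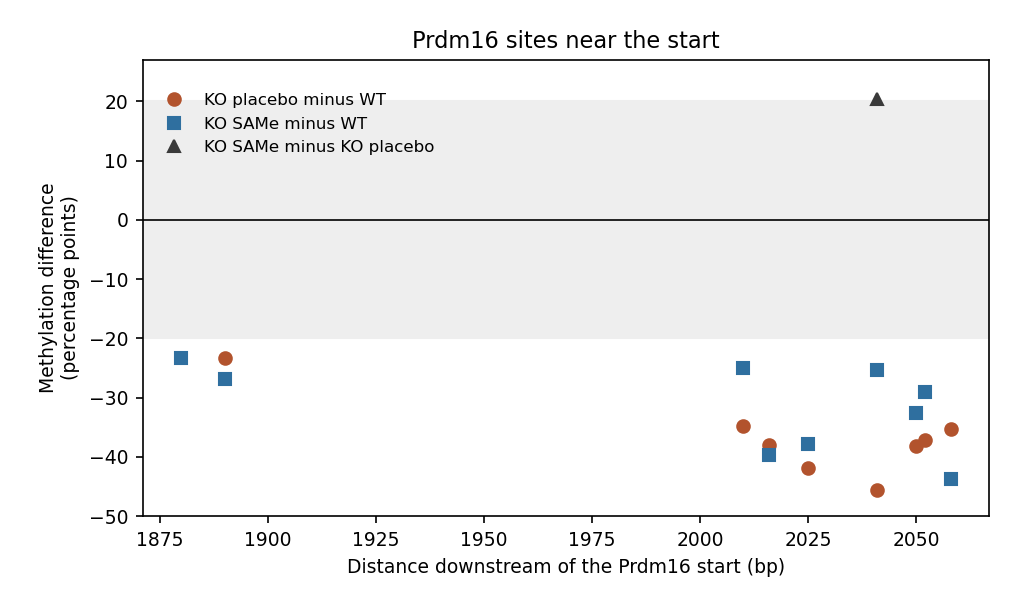
Methylation difference in percentage points (vertical axis) of the Prdm16 sites nearest its start, by distance downstream of the start in bp (horizontal axis). Points are single cytosines in the 3 comparisons without an error, since values per animal were not analysed here, and the grey band marks differences too small to be listed; the site at 2041 bp stood at −45.7 with placebo, −25.3 with SAMe and 20.4 between the KO groups.

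Farther into Prdm16, 6 sites between 43709 and 308174 bp from the start were listed in WT vs KO placebo only. They ran from −29.0 to −20.0 in the authors' deposited table. WT vs KO SAMe listed 1 other distant site, position 154509761, at −22.4 in the authors' deposited table.

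Prdm11, a PR domain gene on chromosome 2, carried 2 sites 9 bp apart (93014181 and 93014190), about 32 kb from its start. With placebo they stood at −43.2 and −41.7, and with SAMe at −29.6 and −28.0, in the authors' deposited table. Both were closer to WT with SAMe, by 13.6 at each, but neither was listed between the KO groups. Prdm11 and Prdm16 were the only 2 of the 74 genes with a difference of at least 40 in WT vs KO placebo, against 1.54% of all coding genes. In WT vs KO SAMe Prdm16 alone did so, against 1.6%, with Prdm2 just under 40 at −39.97.

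Prdm2, known as RIZ, a methyltransferase of histone H3 studied as a tumour suppressor, had 1 site (chromosome 4, position 143157066). It stood at −30.2 with placebo and −39.97 with SAMe in the authors' deposited table, farther from WT with SAMe by 9.77. Prdm1, known as Blimp-1 and a repressor that drives plasma cell differentiation, had 2 sites 6 bp apart, 1898 and 1904 bp downstream of the only start in the promoter table and about 71.7 kb from the gene's outer 5′ end (chromosome 10, 44456850 and 44456844). They stood at −34.7 and −28.5 with placebo and at −32.4 and −32.7 with SAMe in the authors' deposited table. Another site at position 44446950 was listed with placebo only, at −22.2 (q = 6.7e-04) in the authors' deposited table. The other 10 genes of the family had no listed site.

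**Figure D3:**
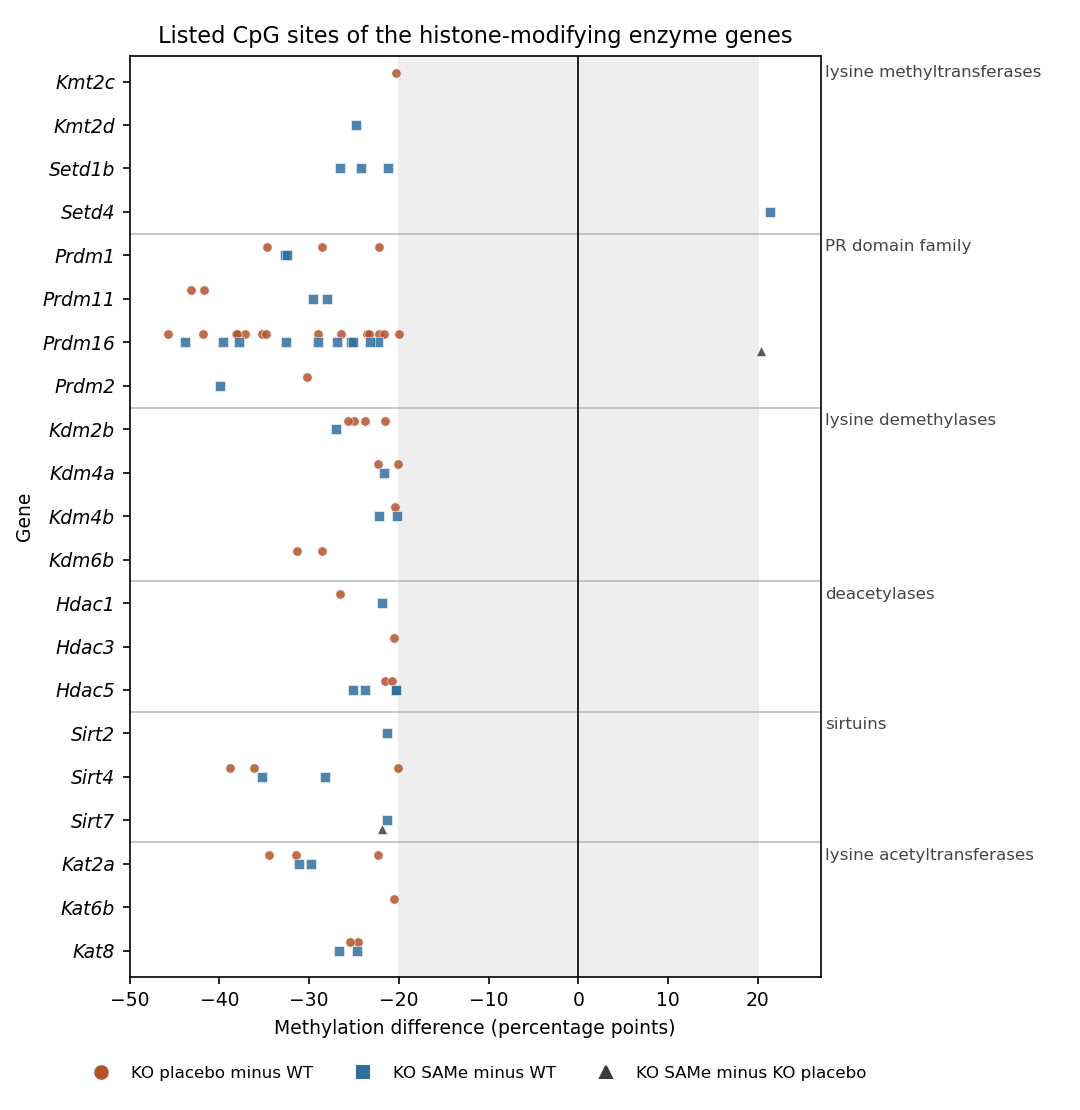
All listed sites of the 21 genes that have one, by gene (vertical axis, grouped by role) and methylation difference in percentage points (horizontal axis). Points are single cytosines in the 3 comparisons and the grey band marks differences too small to be listed; the PR domain genes reach −45.7, and the Setd4 site and the Prdm16 site between the KO groups are the only points above 0.

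Of the 18 lysine demethylase genes, 4 were listed with placebo (22.2%) and 3 with SAMe (16.7%). For all coding genes the shares were 12.5% and 10.8%, and for those of at least 20 kb 17.9% and 15.1%. Kdm2b, which binds unmethylated CpG and brings Polycomb complexes to CpG islands, had 4 lower sites with placebo, at −21.6, −25.0, −25.7 and −23.8 in the authors' deposited table. The last of them (chromosome 5, position 122897303), 3047 bp from the nearest of its 4 annotated starts, was also listed with SAMe, at −27.0 in the authors' deposited table. Kdm6b, which removes methyl groups tied to Polycomb repression, had 2 sites within 11 bp of chromosome 11 (69407567 to 69407577) with placebo only. They stood at −28.5 and −31.3 in the authors' deposited table.

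The related demethylases Kdm4a and Kdm4b, which act on methylated lysines of histone H3, had sites near the threshold. Kdm4a (chromosome 4, position 118148200) stood at −22.3 with placebo and −21.7 with SAMe, and a second site at −20.1 with placebo, in the authors' deposited table. Kdm4b (chromosome 17, position 56348193) stood at −20.4 and −20.2, with another site 20 bp away at −22.2 under SAMe, in the authors' deposited table. All of these lie within 3 percentage points of the threshold. The other 14 demethylase genes had no listed site.

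Deacetylase genes were listed in 3 of 11 cases with placebo (27.3%) and in 2 with SAMe (18.2%). Of all coding genes 12.5% and 10.8% were listed. Hdac1, the class I deacetylase of several corepressor complexes, stood at −26.5 with placebo and −21.9 with SAMe (chromosome 4, position 129535989) in the authors' deposited table. Hdac3, another class I deacetylase, stood at −20.5 with placebo (chromosome 18, position 37941400) in the authors' deposited table. Hdac5, a class IIa deacetylase that shuttles between nucleus and cytoplasm, had 2 sites with placebo at −21.5 and −20.8 and 4 with SAMe from −25.2 to −20.3 in the authors' deposited table. The Hdac5 sites lie within 294 bp of chromosome 11 (102224736 to 102225029), about 5 kb downstream of the start. Both of its shared sites were farther from WT with SAMe, by 2.23 and 4.35.

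The 7 sirtuin genes included 1 listed with placebo (14.3%) and 3 with SAMe (42.9%), against 12.5% and 10.8% of all coding genes. Sirt4, a mitochondrial sirtuin, had sites at positions 115480265 and 115480278 of chromosome 5, about 4 kb downstream of the only start in the promoter table and about 9.99 kb from the gene's outer 5′ end. They stood at −36.2 and −38.9 with placebo and at −28.3 and −35.2 with SAMe in the authors' deposited table. Another cytosine 3 bp farther on stood at −20.1 with placebo only in the authors' deposited table. Sirt2, a mainly cytoplasmic deacetylase, was listed with SAMe alone, at −21.3 (chromosome 7, position 28774067) in the authors' deposited table.

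Sirt7, a nucleolar sirtuin that deacetylates histone H3, held the second site listed between the KO groups. Its position 120618727 on chromosome 11 was lower with SAMe, at −21.9 (q = 0.0153), in the authors' deposited table, and neither WT comparison listed it. A lower site with SAMe was listed for 0.274% of all coding genes. Another Sirt7 site, position 120619255, stood at −21.3 in WT vs KO SAMe in the authors' deposited table. Both lie inside Sirt7 and within 2 kb of Pcyt2, so they cannot be given to 1 gene alone. Sirt1, Sirt3, Sirt5 and Sirt6 had no listed site.

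Among the 8 lysine acetyltransferase genes, 3 were listed with placebo and 2 with SAMe. Kat2a, the GCN5 acetyltransferase of the SAGA complex, had 3 sites 1553 to 1674 bp upstream of its start with placebo. They stood at −31.4, −22.4 and −34.5, and the first 2 at −31.1 and −29.8 with SAMe, in the authors' deposited table. All 3 lie inside the neighbouring gene Hspb9 and within 2 kb of Rab5c. Kat8, the MOF acetyltransferase of histone H4, had 1 site inside the gene (chromosome 7, position 127920718) at −24.6 in both comparisons in the authors' deposited table. Its other site, 413 bp beyond the gene end and inside Prss8, stood at −25.4 with placebo and −26.7 with SAMe in the authors' deposited table. Kat6b, the MORF acetyltransferase, had 1 site with placebo, 223 bp upstream of the gene's outer RefSeq end and 777 bp upstream of its nearest start in the promoter table, at −20.5 (chromosome 14, position 21498993, q = 2.75e-06) in the authors' deposited table. The other 5 acetyltransferase genes had no listed site.

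At 25 sites in 12 of these genes both WT comparisons gave a value. These were 58.1% of the sites of these genes listed with placebo, against 55.2% of all listed sites. Of those listed with SAMe they were 67.6%, against 68.9%. The SAMe minus placebo difference at the 25 sites, by subtraction, had a median of 0.30 percentage points and ran from −9.77 to 20.4. SAMe-treated KO liver was closer to WT at 14 sites and farther at 11, and 22 of the 25 (88.0%) lay within 10. Without Prdm16, whose neighbouring sites are not independent, 9 of 17 sites were closer and 8 farther. At the 3707 sites of all genes listed in both tables the median was −0.46, with 1694 positive and 2009 negative differences, and 91.7% lay within 10. The 3 sites beyond 10 were the 2 of Prdm11 and 1 of Prdm16. A site had to pass the thresholds in both tables to be counted here, and such a site cannot stand within 20 of WT.

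**Figure D4:**
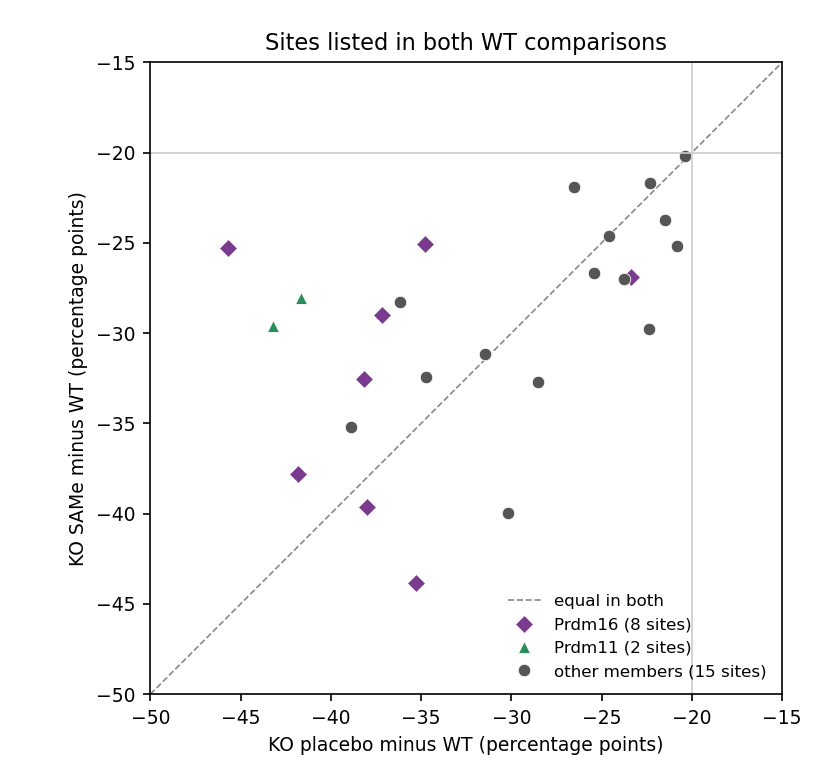
The 25 sites listed in both WT comparisons, with the difference of placebo-treated KO liver from WT (horizontal axis) against that of SAMe-treated KO liver (vertical axis), both in percentage points. Each point is 1 cytosine, the dashed line marks equal differences and the grey lines the listing threshold; points above the dashed line, 14 of 25, were closer to WT with SAMe, and both axes use the same WT mice.

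Other genes of the same pathways were described from 3 further lists. Of 27 other histone methyltransferase genes, 8 were listed with placebo (29.6%) and 4 with SAMe (14.8%), against 12.5% and 10.8% of all coding genes, all lower. Smyd3, a methyltransferase with SET and MYND domains, stood at −40.6 with placebo and −35.1 with SAMe (chromosome 1, position 179060705) in the authors' deposited table. Nsd1, which methylates histone H3, stood at −23.1 and −40.1 (chromosome 13, position 55210100) in the authors' deposited table. Of 47 subunits of the complexes that hold these enzymes, 7 were listed in each WT comparison (14.9%), near the 12.5% and 10.8% of all coding genes, and all were lower. Kansl1, a subunit of a Kat8 complex, reached −48.6 with placebo and −49.7 with SAMe in the authors' deposited table. These were different cytosines of chromosome 11, positions 104424190 and 104424169. The chromatin remodeller Chd4 stood at −38.9 and −46.8 (chromosome 6, position 125119407) in the authors' deposited table.

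Of 15 other demethylase and acetyltransferase genes, 1 was listed with placebo, 0 with SAMe and 1 between the KO groups, against 12.5%, 10.8% and 0.658% of all coding genes. It was Phf2 each time, a demethylase of the JmjC family, at chromosome 13 position 48812798. It stood at −20.0 with placebo (q = 1.38e-08) and was higher with SAMe than with placebo by 23.0 (q = 1.53e-06) in the authors' deposited table. By addition SAMe-treated KO liver stood 2.94 above WT at this site.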

How the data were processed

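Per the submitters' processing notes, CASAVA 1.8.2, Trim Galore, Bismark and methylKit were used with mm10, without order or settings. The p-values and q-values and the methylation differences in percentage points were deposited by the authors, 1 cytosine of 1 strand per line, past their thresholds only. The test behind them, the coverage filter and whether reads were pooled are not given in the sources used here. Of the 19 samples none has a column of its own. Leaving out animals and replicate error were therefore not possible, and depth per sample is unknown. From the tables, sites were assigned to every coding gene they lay in or within 2 kb of, and counts, medians and subtractions were computed with Python 3.11.15, pandas 2.3.3 and numpy 2.4.6. The assignment was tested on simulated data. No test was run, since only listed sites carry a p-value, so each call is the authors' own.

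At the 26 sites in all 3 tables the WT vs KO SAMe difference equalled the sum of the other two within 1e-08, so all tables share 1 orientation. The genes and lists were chosen with earlier results of these data known. The rule for genes described with values took those with a site in both WT comparisons, between the KO groups, at least 2 sites in 1 comparison or a difference of at least 40. The 6 other genes with a site are given by that 1 site. At most 3 genes of each further list are named. Some genes that this rule names are not reported here. Alternatives covered the flank, the thresholds, overlapping genes and joining of sites. A floor on gene length and leaving out Prdm16 were added after seeing the data.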

Additional observations from a re-analysis of the deposited data

Results flagged for a closer look

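At Prdm16, chromosome 4 position 154634832, both KO groups differed from WT and the table of KO placebo vs KO SAMe lists the site as well. SAMe-treated KO liver was 20.4 percentage points higher than placebo-treated KO liver (q = 0.0271) in the authors' deposited table. It was the only site of the 74 genes in all 3 tables. The difference lies close to the threshold of 20.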

How the results depend on the processing

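No paired analysis was possible, since the groups hold different mice with no pairing given and the tables hold group differences only. Without values per animal, no animal could be left out. Of 57 alternatives, 42 left a count within 1.5 times its value or a median within 1 SD of the sites. With a difference of at least 25, the genes with a site numbered 10 in WT vs KO placebo, 10 in WT vs KO SAMe and 0 between the KO groups. The sites then numbered 24, 21 and 0, those in both WT comparisons 16, and the WT vs KO placebo median was −34.6, since smaller differences are removed. Joining sites within 1 kb gave 26 and 19 regions in place of 43 and 37 sites. Between the KO groups, q below 0.01 left 0 genes and 0 sites. Leaving out sites shared with other coding genes there removed Sirt7 and left 1 gene and 1 site, which turned the median of 2 sites from −0.758 to 20.4. No median could be given where no site was left.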

Other observations

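Sites were listed by strand. Both cytosines of 1 CpG were listed at 23 CpG sites of the WT vs KO placebo table and 21 of the WT vs KO SAMe table, and at 0 of the CpG sites of these genes. The 56 distinct sites of these genes lay on 11 chromosomes, 20 of them on chromosome 4 and 11 each on chromosomes 5 and 11. Most of those on chromosome 4 belong to Prdm16 alone, which held 14 sites listed with placebo and 10 listed with SAMe. The share of all listed sites on each chromosome is not given here, so a concentration on any chromosome was not tested.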
